A study of Mus musculus with 6 samples.

Results

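The genes described here are 36 genes of DNA replication and of the step from G1 into S phase. They include the MCM helicase and its loaders and activators, the replicative polymerases, and the sliding clamp and its loader. Enzymes of nucleotide supply and regulators of S phase entry are also among them. The genes were chosen by symbol and by no rule on their values, though with earlier results of these data known. Each of the 36 names matched 1 line of the 22381 genes in the authors' deposited table. RNA was sequenced from LSK cells, the lineage-negative, Sca-1+ c-Kit+ fraction of bone marrow that holds blood-forming stem cells and early progenitors, from C57BL/6 mice aged 8 to 12 weeks. The groups were 3 samples labelled Tgif1-/-, from mice lacking the homeodomain repressor Tgif1, and 3 samples labelled WT. The labels do not say whether each sample is its own animal, nor which part of Tgif1 was removed. The table gives 1 FPKM value per group (fragments scaled to transcript length and to the mapped total), so no spread between samples can be shown and the sequencing depth is unknown. Tgif1 itself had 88.6 FPKM under the Tgif1-/- label against 71.5 FPKM under the WT label, with its test marked as failed. That does not bear out the label, and every direction below is between groups as labelled.

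Before a cell divides it copies its genome. In G1, the origin recognition complex with Cdc6 and Cdt1 loads the ring of Mcm2 to Mcm7 onto DNA, and in S phase Cdc7 kinase, Cdc45, the GINS complex and Mcm10 turn that ring into a working helicase, behind which polymerases, clamp and ligase build the new strands. Many of these genes are switched on together by E2F factors as cells pass from G1 into S phase. Most stem cells of the LSK fraction rest in G0 while its multipotent progenitors cycle, so the RNA of these genes is widely read as a sign of how many cells are cycling. The series title names stem cell quiescence, and the comparison asks whether the RNA of this machinery differed between the groups.

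None of the 25 members with a completed test differed between the groups at a q at or under 0.05 in the authors' deposited Cuffdiff test, and none had an unadjusted p under 0.05. Of all 10730 tested genes, 0.662% were called at that q (71 genes) and 5.41% had an unadjusted p under 0.05, so the shares over all genes would give 0.165 and 1.35 members among 25, and a count of 0 is close to that background. At a looser q of 0.1 the members again gave 0 calls, against 0.923% of genes. With a floor under each gene's error, set at the median error of its expression bin, they also gave 0, against 0.197% of genes. The tests of the other 11 members are marked as failed in the table. Their FPKM values are deposited but carry no error and no p. The summed FPKM of the 36 genes was 3201 in the group labelled Tgif1-/- and 3280 in the wild-type group. These sums carry no error. In values of this kind, a difference in the share of cycling cells cannot be told apart from one in RNA per cycling cell.

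E2F-type letters before the start of several members are shown here because they are a feature that several members share. RefSeq promoter windows (GRCm38.p6, 250 bases before to 50 after a gene start) were found for 30 of the 36 members. They were searched on both strands for TTTCCCGC, TTTGGCGC, TTTCGCGC and TTTGCCGC, where matches on opposite strands may overlap each other. At least 1 match lay in the windows of 11 of the 30 members (36.7%), against 2.60% of 27025 genes with a window and 4.82% of 6272 genes that were tested here and reached 1 FPKM in either group. Several members are textbook E2F targets, so a high share is no independent finding. The form TTTGCCGC was found in no member window. The stretches below lie before the start of the windows' transcript, with matched letters in capitals. Each is written in the direction of its gene.
Mcm5: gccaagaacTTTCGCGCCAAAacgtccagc
Mcm6, first site: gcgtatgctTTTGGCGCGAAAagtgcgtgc
Mcm6, second site: ttggacgggTTTGGCGCgaagtagct
Mcm7: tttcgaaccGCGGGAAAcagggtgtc
Orc1: cggttagtgGCGCGAAAagttttctc
Cdc6: cggtggagaGCGGGAAAtcgcctggg
Pola1: catcacaggGCGCCAAAtgcactccc
Rfc3: gtcgcacgcTTTCGCGCtc

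The capitals in the Mcm5 stretch (chr8:75109347-75109376, plus strand) and in the first Mcm6 stretch (chr1:128359795-128359824, minus strand) each hold a pair of overlapping matches on opposite strands. They begin 153 and 110 bases before the start. The second Mcm6 match (chr1:128359736-128359761) begins 47 bases before the start. The other stretches lie at chr5:138172032-138172057 (Mcm7, minus strand), chr4:108579418-108579443 (Orc1, plus strand), chr11:98908004-98908029 (Cdc6, plus strand), chrX:93632277-93632302 (Pola1, minus strand) and chr5:151651209-151651227 (Rfc3, minus strand). Those of Mcm7, Orc1, Cdc6 and Pola1 fall inside the outer bounds of the RefSeq gene, which other transcripts extend, and those of Mcm5, Mcm6 and Rfc3 lie outside them. Mcm3, Cdt1, Pold1 and Lig1 had their matches after the start, and Mcm7 and Rfc3 had a further match there. Of the MCM ring genes with a window, Mcm2 alone had no match. At least 2 matches were found in 5 members (16.7%: Mcm3, Mcm5, Mcm6, Mcm7 and Rfc3), against 0.107% of all genes. In Mcm5 the 2 matches are the overlapping pair. The share was 0.223% of genes tested here with at least 1 FPKM in a group. It was 4.35% of other S phase and E2F-linked genes and 0% of the other fork, mitotic and G1 entry lists. A match describes letters and does not show that a factor binds.

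The mitotic genes, which act after S phase, gave other shares. Of 24 mitotic genes with a window, 1 (4.17%) held an E2F-type match, while 19 (79.2%) held CCAAT, the box bound by NF-Y, against 41.1% of all genes. Among the replication members 17 of 30 (56.7%) held CCAAT, among other replication fork and licensing genes 13 of 27 (48.1%), and among other S phase and E2F-linked genes 16 of 23 (69.6%). These shares describe fixed lists and were not tested. Other replication fork and licensing genes gave 9 of 27 (33.3%) for the E2F-type letters, other S phase and E2F-linked genes 10 of 23 (43.5%), and genes of G1 entry 2 of 11 (18.2%). The ratio between groups was near 0 with and without the letters: the median log2 ratio was 0.01 over 7 tested members with a match (range -0.16 to 0.05) and -0.03 over 13 tested members without one (range -0.16 to 0.31).

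**Figure D1:**
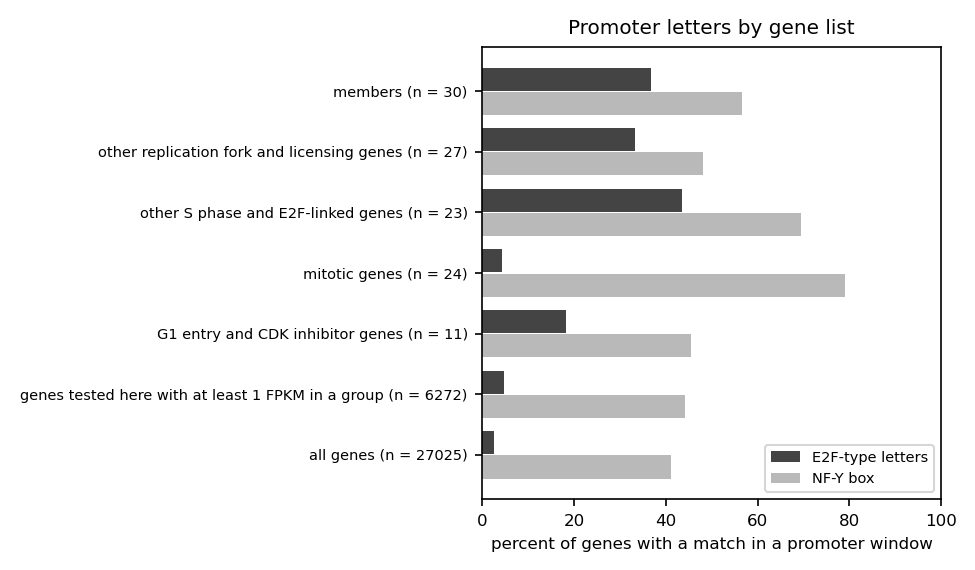
Horizontal bars give the percent of genes in each list with at least 1 promoter window holding E2F-type letters (dark) or the NF-Y box (light), with the number of genes that have a window in brackets. The replication members stand at 36.7% for the E2F-type letters, against 4.17% of mitotic genes and 2.60% of all genes.

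The members were expressed well above the typical gene. In the pairs below, the FPKM value of the group labelled Tgif1-/- comes first and that of the wild-type group second, and a log2 ratio below 0 means a lower value under the Tgif1-/- label. The median level of the 36 members was 57.3 and 60.4 FPKM, and 35 of them lay above the median tested gene, which had a mean of 10.8 FPKM. Levels spanned from Ccne1 at 4.46 and 4.99 FPKM to Pcna at 566 and 570 FPKM. FPKM is scaled to transcript length, so levels of different genes are set beside each other below, as a rough guide only. Whether reads were counted equally well for each gene was not tested. With no spread between samples the order of near neighbours is not secured.

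**Figure D2:**
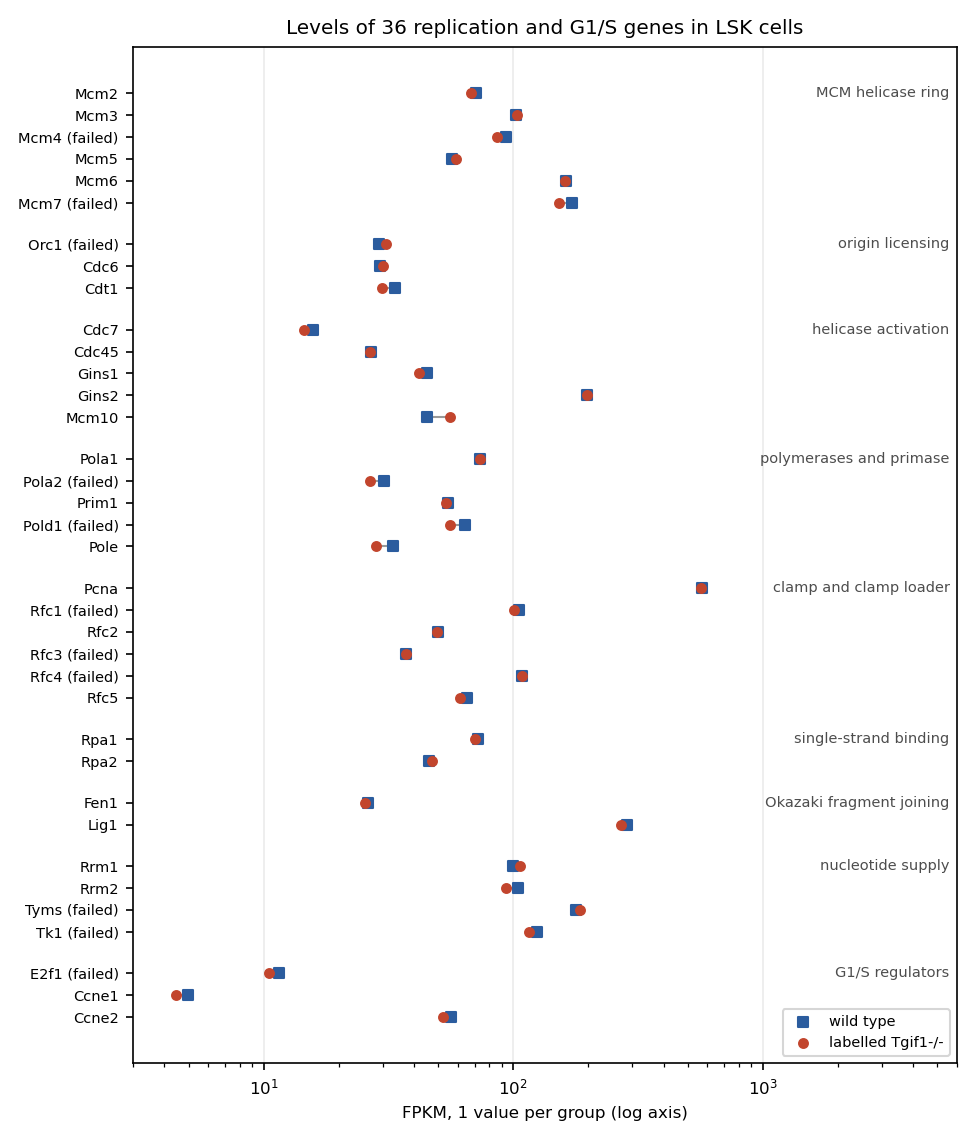
Each line is a gene, grouped by role, with its FPKM (log axis) in the wild-type group (blue squares) and in the group labelled Tgif1-/- (red circles), 1 deposited value per group. The paired symbols nearly coincide for most genes, from Ccne1 near 5 FPKM to Pcna at 566 and 570 FPKM, and Mcm10 shows the widest gap, at 55.6 and 44.9 FPKM.

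The helicase ring is built from equal numbers of its 6 subunits, yet their RNA levels differed by 2.73-fold in the group labelled Tgif1-/- and 3.03-fold in wild type. Mcm6 stood at 161 and 163 FPKM and Mcm7 at 153 and 173 FPKM, the highest of the ring. Mcm3 followed at 104 and 102 FPKM. Mcm4 was at 85.7 and 93.8 FPKM, Mcm2 at 67.4 and 71.0 FPKM, and Mcm5 was lowest at 59.0 and 57.0 FPKM. The order of the ring genes was the same in both groups except that Mcm6 and Mcm7 traded places, and Mcm7 is among the failed tests. Mcm7 also lies in a block with other genes, and whether that bears on its level was not tested. Log2 ratios of the 4 tested subunits lay between -0.07 and 0.05. For Mcm5 the 95% interval from the authors' model ran from -0.15 to 0.25, and for Mcm2, the least balanced of the tested subunits, from -0.46 to 0.31. Mcm4 and Mcm7, whose tests failed, had log2 ratios of -0.13 and -0.17.

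The loaders that place the ring on DNA stood close together and below the ring. Orc1, the largest subunit of the origin recognition complex, was at 30.9 and 29.1 FPKM with a failed test. Cdc6, the ATPase that joins it at the origin, was at 30.0 and 29.3 FPKM. Cdt1, which carries the ring to the origin, was at 29.8 and 33.4 FPKM, a log2 ratio of -0.16 with an interval from -0.59 to 0.27. In wild type these 3 levels lay within 1.15-fold of each other, and in the group labelled Tgif1-/- within 1.04-fold.

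The activators of the loaded helicase showed the widest difference of the list in either direction. Mcm10 (ENSMUSG00000026669, chromosome 2, positions 4910760 to 4933837 in the table), a scaffold needed to start unwinding, had 55.6 FPKM under the Tgif1-/- label against 44.9 FPKM in wild type. Its log2 ratio was 0.31 with a standard error of 0.17 implied by the deposited statistic, its unadjusted p was 0.0645 and its q was 1.00 in the authors' deposited table. That is the lowest p of the members, and it missed both thresholds. The interval of its difference ran from -1.27% to 54.7%, which does not exclude a change of 1.5-fold. With the error floor the p was 0.106.

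The other four activators differed less. Cdc7, the kinase that fires origins, was at 14.5 and 15.7 FPKM. Cdc45, which joins the ring in the active helicase, was at 26.7 and 26.8 FPKM, and Gins1, a subunit of the GINS complex that joins with it, at 42.0 and 45.1 FPKM. Gins2, of the same complex, was at 198 FPKM in each group, with a log2 ratio of 0.00 and an interval from -0.35 to 0.36. Although GINS is built from equal parts, Gins2 RNA thus stood several times above Gins1, and the remaining subunits Gins3 and Gins4 were at 6.55 and 6.71 FPKM and at 51.4 and 51.9 FPKM. The table places Gins2 and Cdt1 in the same block of 75 genes (chromosome 8, positions 122434260 to 126869624), so the values of genes in it may not be independent. Whether that bears on the level of Gins2 was not tested.

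Among the polymerases, the catalytic subunits that copy the bulk of the genome had lower values under the Tgif1-/- label, within the error where there is one. Pole, of the leading-strand polymerase, was at 28.1 and 33.0 FPKM. Its log2 ratio was -0.23 (implied standard error 0.18), with an unadjusted p of 0.196 in the authors' deposited Cuffdiff test. Its interval ran from -32.9% to 8.55%. Pold1, of the lagging-strand polymerase, was at 55.6 and 63.9 FPKM, and its test failed. The accessory subunits of these enzymes in the list of other fork genes did not share that direction throughout: Pole2 was at 24.2 and 26.2 FPKM, Pole3 at 39.5 and 36.9 FPKM, Pole4 at 65.0 and 57.1 FPKM, and Pold4 at 25.1 and 20.7 FPKM. Pold2 and Pold3, whose tests failed, were at 119 and 127 FPKM and at 206 and 203 FPKM. Pola1, the catalytic subunit of the primer-making polymerase alpha, was at 73.6 and 73.3 FPKM, with a narrow interval from -0.14 to 0.15 in log2 ratio. Prim1, the primase, was at 54.0 and 54.8 FPKM. Pola2, the regulatory subunit of polymerase alpha, was at 26.7 and 30.3 FPKM with a failed test.

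Pcna (ENSMUSG00000027342, chromosome 2, positions 132074898 to 132079050 in the table), the ring-shaped clamp that holds polymerases on DNA and a common marker of cycling cells, had the highest level of the list. Its values were 566 and 570 FPKM. The difference was -0.675%, with an interval from -16.1% to 17.5%. The clamp loader is a ring of 5 different subunits, of which Rfc1, the large one, was at 101 and 105 FPKM and Rfc4 at 109 and 108 FPKM. Rfc5 was at 61.4 and 65.0 FPKM, Rfc2 at 49.4 and 50.0 FPKM, and Rfc3 at 37.2 and 37.1 FPKM. The tests of Rfc1, Rfc3 and Rfc4 failed. Log2 ratios over clamp and loader lay between -0.08 and 0.01.

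The remaining fork proteins differed little too. Rpa1 and Rpa2, subunits of the complex that coats single-stranded DNA, were at 70.2 and 72.1 FPKM and at 47.1 and 45.8 FPKM. Fen1, the nuclease that trims Okazaki fragments, was at 25.6 and 26.1 FPKM. Lig1 (ENSMUSG00000056394, chromosome 7, positions 13844316 to 13896782 in the table), the ligase that seals them, stood roughly 11 times higher, at 271 and 285 FPKM. The level of Lig1 relative to Fen1 was 10.6-fold in the group labelled Tgif1-/- and 10.9-fold in wild type. Fen1 and Lig1 each lie in a block with another gene, and whether that bears on their levels was not tested. The difference of Lig1 was -4.94%, with an interval from -10.5% to 1.02% and an unadjusted p of 0.103 in the authors' deposited Cuffdiff test.

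Genes of nucleotide supply gave ratios on both sides of 0. Rrm2 (ENSMUSG00000020649), the S phase subunit of ribonucleotide reductase, was at 93.7 and 104 FPKM, and its partner Rrm1 at 106 and 99.3 FPKM. The log2 ratio was -0.15 for Rrm2 (interval -0.33 to 0.03, unadjusted p = 0.107 by Cuffdiff in the authors' deposited table) and 0.10 for Rrm1 (interval -0.29 to 0.49). Tyms, which makes thymidylate, was at 185 and 179 FPKM, and Tk1, thymidine kinase of S phase, at 116 and 124 FPKM. Both of those tests failed.

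Among regulators of S phase entry were the lowest levels of the list, those of Ccne1 and E2f1, and all 3 regulators had lower values under the Tgif1-/- label, without passing a threshold. E2f1, an activating E2F factor, was at 10.5 and 11.6 FPKM, with a failed test. Ccne1, a cyclin E that activates Cdk2, was at 4.46 and 4.99 FPKM, and Ccne2, the other cyclin E, at 52.3 and 56.2 FPKM. The RNA of Ccne2 thus stood more than 10 times above that of Ccne1 in both groups. Ccne2 lies in a block with another gene, and whether that bears on its level was not tested. For Ccne1 the interval was the widest of the list, from -46.6% to 49.4%. For Ccne2 it ran from -21.9% to 10.8%.

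**Figure D3:**
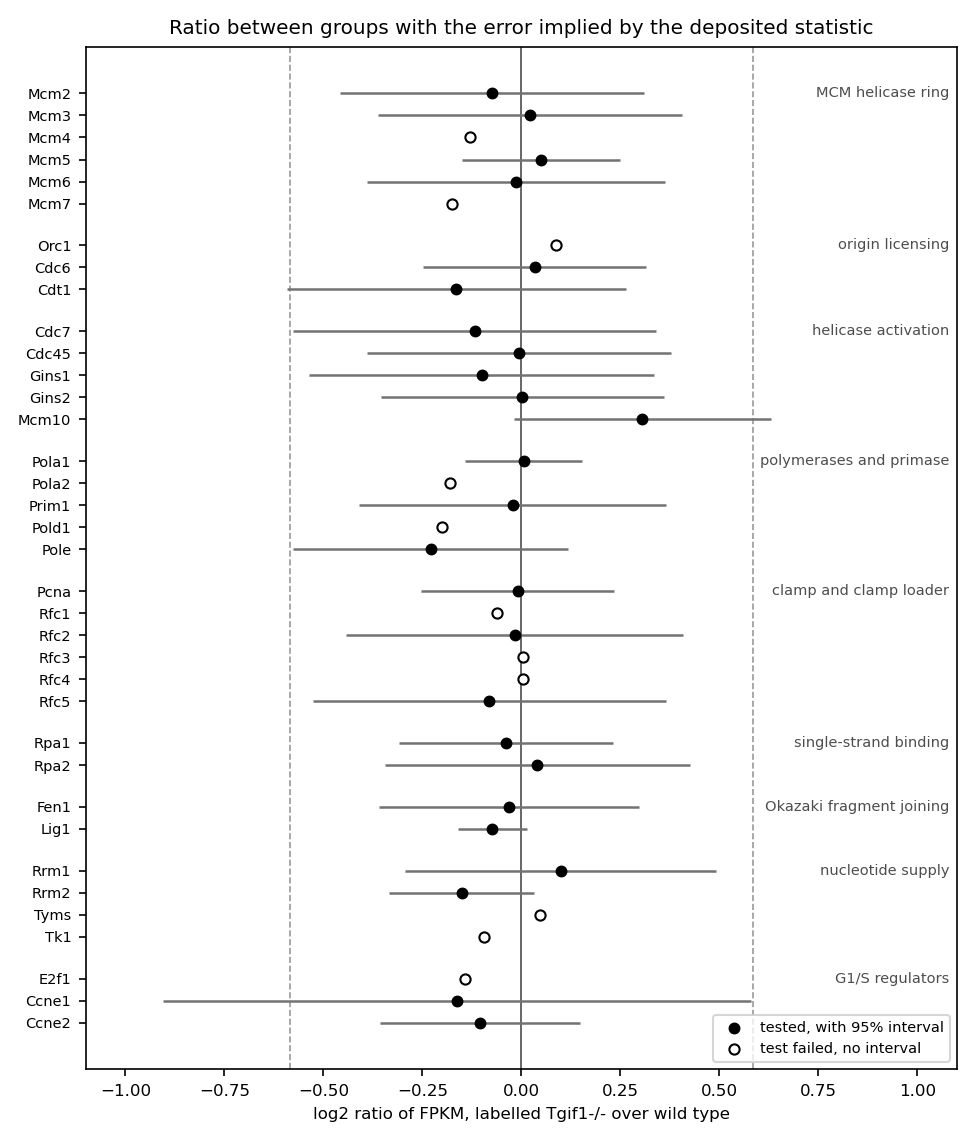
Points give the log2 ratio of FPKM, group labelled Tgif1-/- over wild type, for each gene by role. Filled points are tested genes with the 95% interval implied by the deposited statistic, open points are genes whose test failed, and dashed lines mark 1.5-fold either way. All 25 intervals span 0, and those of Mcm10, Cdt1 and Ccne1 alone reach past a dashed line.

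Across the 25 tested members the log2 ratio ran from -0.23 (Pole) to 0.31 (Mcm10), with a median of -0.02. Over all tested genes the median was -0.03. By sign, 17 tested members were lower and 8 higher, or 68.0% lower, against 57.4% lower over all tested genes. After centring on the median of all tested genes the split was 11 lower and 14 higher. Most of these ratios lie close to 0, so their signs turn with a small shift. The 11 failed members had log2 ratios between -0.20 and 0.09, 7 of them lower.

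The differences were small beside those of tested genes in the members' range of levels. That range is set by the lowest and highest member, so its genes are not matched to the members by level. Implied errors fall with level, and whether level accounts for the smaller differences was not tested. The median absolute log2 ratio was 0.05 over the tested members and 0.10 over the 6949 tested genes with a mean level between those of Ccne1 and Pcna. Within 1.2-fold either way lay 24 of 25 tested members, Mcm10 being the exception, and 86.5% of those genes. In that range of levels 0.575% of tested genes were called. These shares describe a list chosen by name and were not tested. At an unadjusted p under 0.2 there were 4 members (16.0%: Mcm10, Lig1, Rrm2 and Pole), against 14.6% of all tested genes.

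**Figure D4:**
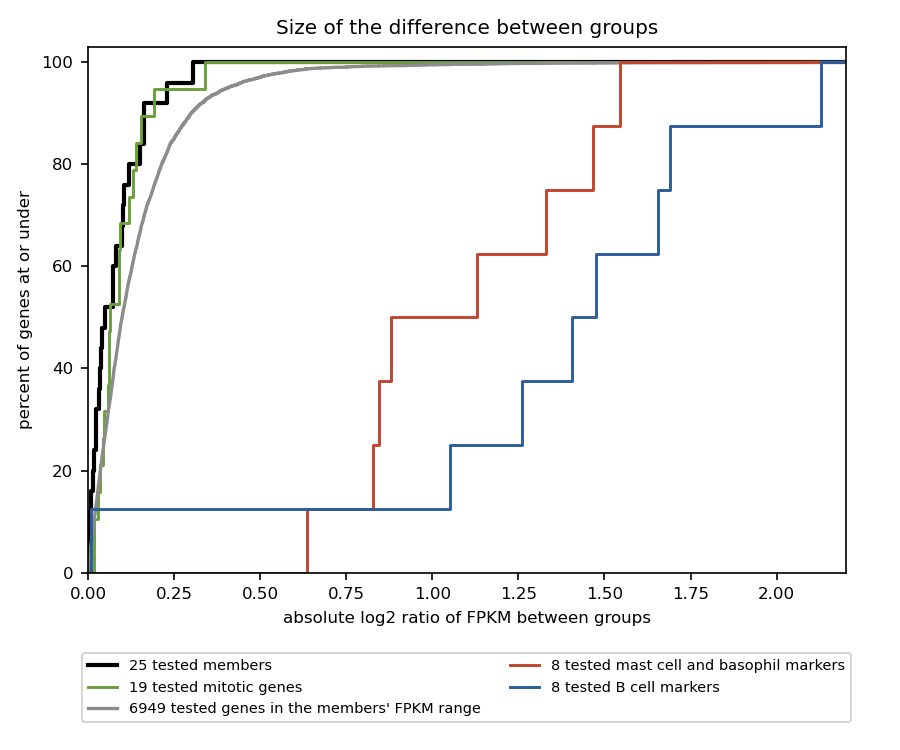
Steps give the percent of genes at or under each absolute log2 ratio between groups, for the tested members (black), mitotic genes (green), genes in the members' FPKM range (grey), mast cell and basophil markers (red) and B cell markers (blue). The members reach 100% at 0.31, while all 8 mast cell and basophil markers lie beyond it. The lists were chosen with earlier results of these data known, so the contrast is no test.

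A missed threshold does not show equal levels, so the intervals set what sizes of change remain possible. In 22 of 25 tested members the 95% interval lay wholly inside 1.5-fold either way, and in all 25 inside 2-fold, against 59.7% and 92.6% of tested genes in the same range of levels. The exceptions at 1.5-fold were Mcm10, Cdt1 and Ccne1. The genes in that range were not matched to the members by level, and their median implied error was 0.22, against 0.19 for the members. From each gene's error and the largest p that was still called in the table (0.000318), the smallest fold that could have been called had a median of 1.61 over the members. It ran from 1.12 for Lig1 to 2.57 for Ccne1, and it was under 1.5 for 8 members and under 2 for 24. Changes of less than about 1.6-fold were thus below the reach of the call for the typical member.

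These errors belong to the authors' model and are not a spread measured between samples. For 13 of 25 members the error was smaller than the median error of genes at like level. About as many genes fall under a median as above it, so that count is close to background. The error was 0.04 for Lig1, 0.08 for Pola1, 0.09 for Rrm2 and 0.10 for Mcm5, where the medians of genes at like level were 0.20, 0.19, 0.18 and 0.19. With those medians as a floor, the p of Lig1 was 0.712 and that of Rrm2 0.400.

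**Figure D5:**
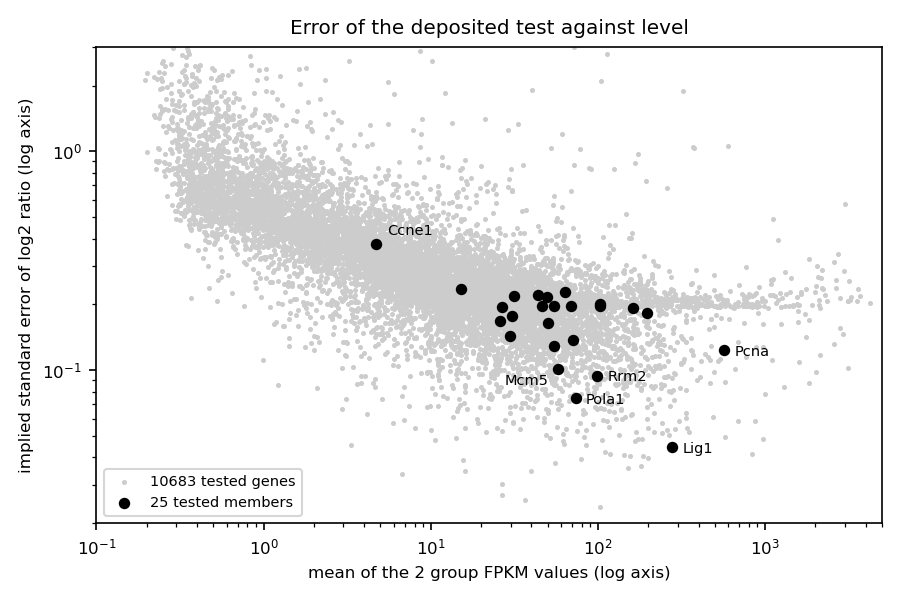
Each point is a tested gene, with the mean of its group FPKM values on the x axis and the implied standard error of its log2 ratio on the y axis (both log axes). The 25 members are black and other genes grey, and 30 of 10683 genes lie outside the axes. Errors fall with level, Ccne1 stands highest of the members at 0.38, and Lig1 lies far below the band of its level at 0.04.

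Failed tests took 30.6% of the members and 27.9% of the 9659 genes in the same range of levels. The failed members had a median level of 89.8 FPKM, against 54.4 FPKM for the tested ones. By the table, 11 of 36 members lie in a block with at least 1 other gene. Of these, 7 were tested (Cdt1, Cdc45, Gins2, Rfc5, Fen1, Lig1 and Ccne2) and 4 failed (Mcm7, Rfc4, Tyms and Tk1). Log2 ratios of these 11 lay between -0.17 and 0.05. Over the 18 tested members that stand alone in their block the median log2 ratio was -0.02.

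Other genes of the pathway were described by lists fixed with the members. In the list of other replication fork and licensing genes, 33 of 34 were in the table, 22 were tested, none was called by Cuffdiff and none had an unadjusted p under 0.05. Its smallest p-values belonged to Pole4, an accessory subunit of the leading-strand polymerase (log2 ratio 0.19, p = 0.0667 in the authors' deposited table), and Dscc1, a subunit of an alternative clamp loader, at 11.8 and 9.77 FPKM. In the list of other S phase and E2F-linked genes, 17 of 30 were tested and none was called by Cuffdiff. There 1 had an unadjusted p under 0.05: Cdc25a, the phosphatase that activates Cdk2, at 15.1 and 16.8 FPKM (p = 0.0041, q = 0.28 in the authors' deposited table). Its log2 ratio of -0.16 had an implied error of only 0.05. The median log2 ratios of both lists were -0.02 and -0.03.

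Mitotic genes and genes of G1 entry were set beside the members as the lists nearest to them. Of 19 tested mitotic genes, 11 were higher and 8 lower and neither the Cuffdiff q nor an unadjusted p of 0.05 was passed by any. Their median log2 ratio was 0.02, with Ndc80 (a kinetochore protein) at 34.7 and 27.4 FPKM and the kinase Aurka at 23.1 and 25.7 FPKM nearest to the threshold. Of 12 tested genes of cyclins D, CDKs, CDK inhibitors and the retinoblastoma family none was called by Cuffdiff, and 1 had an unadjusted p under 0.05, the inhibitor Cdkn1a at 34.3 and 47.3 FPKM (log2 ratio -0.46, p = 0.0272, q = 0.689 in the authors' deposited table). Next came Rbl2, a relative of the retinoblastoma protein, at 69.5 and 77.5 FPKM. The median absolute log2 ratio of this list was 0.18, against 0.05 for the members, and that difference was not tested. The other lists lay near the members, at 0.06 for other replication fork and licensing genes, 0.04 for other S phase and E2F-linked genes and 0.06 for mitotic genes.

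Markers of the labelled cells were present in both groups. Kit was at 193 and 202 FPKM, Ly6a, which encodes Sca-1, at 120 and 88.9 FPKM, and Cd34 at 314 and 316 FPKM. The tests of Kit and Cd34 failed, as did 6 of the 10 tests in this list. Ly6a had a log2 ratio of 0.43 with an unadjusted p of 0.0536 in the authors' deposited Cuffdiff test. Procr was at 7.32 and 8.82 FPKM and Slamf1 at 4.02 and 4.08 FPKM. CD3 chains of the T cell receptor were all under 1 FPKM (Cd3e at 0.134 and 0.250 FPKM, and Cd3g listed at 0 in the group labelled Tgif1-/-), as was Ms4a1 of B cells, at 0.165 and 0.0594 FPKM. The whole list of T and NK cell markers summed to 323 and 323 FPKM, nearly all of it Nkg7 at 316 and 313 FPKM, with Cd4 at 3.21 and 2.58 FPKM and Klrd1 at 3.12 and 5.27 FPKM. None of its 5 tested genes was called by Cuffdiff, and 1 (Klrd1) was lower at an unadjusted p under 0.05. Markers of some other lineages were called between the groups, in lists chosen with earlier results of these data known. Mast cell and basophil markers summed to 390 and 157 FPKM, with 8 of 8 tested higher and 4 called. B cell markers summed to 58.3 and 120 FPKM, with 7 of 8 tested lower and 4 called. Neutrophil and monocyte markers summed to 147 and 208 FPKM with none called by Cuffdiff and 5 of 6 tested lower at an unadjusted p under 0.05, and erythroid markers to 734 and 598 FPKM with none called by Cuffdiff and 1 of 8 at that level. Whether such cells add to the RNA of the replication genes was not tested.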

How the data were processed

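RNA from LSK cells (about 200 ng per the labels' protocols) of 3 samples labelled Tgif1-/- and 3 labelled WT was sequenced. The submitters' processing notes name TopHat and Cuffdiff, without versions, and the build hg19, although the identifiers are mouse. No mouse build is named. The deposited positions printed for Mcm10, Pcna and Lig1 do not match GRCm38.p6. Neither they nor the deposited positions of the block with Gins2 and Cdt1 can be combined with the promoter positions. FPKM values are the authors', 1 per group as the file headers state, with p-values and q-values of the deposited Cuffdiff test. Table starts are printed counting from 1. Log2 ratios were computed from the FPKM values. The log2 ratio over the deposited test statistic gave the implied standard error and 95% normal intervals. The deposited p-values equalled the normal two-sided value of the statistic (10683 of 10683 genes within 0.001) and the q-values a Benjamini-Hochberg adjustment (10730 of 10730). A gene was called where tested with q at or under 0.05. The error floor is the median implied error in the same of 20 expression bins, with p-values adjusted over 10683 genes. It was tested on data simulated with the implied errors as noise, which cannot show whether those errors are too small. All 36 members are named; of each further list, every called gene or the 2 smallest p, of which 1 gene is not reported here. Members, lists, fold bounds and alternatives were chosen with earlier results of these data known. Calculations used Python 3.11.15, pandas 2.3.3, numpy 2.4.6 and scipy 1.17.1.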

Additional observations from a re-analysis of the deposited data

How the results depend on the processing

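The count of 0 called members held at q thresholds of 0.01 and 0.1 (0.923% of all tested genes called at the latter), with the error floor, and with adjustment over genes with at least 1 or 5 FPKM. No called gene appeared in the 4 further lists with the error floor or at q of 0.1. The count of members at an unadjusted p under 0.05 was 0, and 1 (Mcm10) at a p under 0.1. The median log2 ratio of -0.02 stayed between -0.03 and 0.01 in its alternatives (pseudocounts of 0.1 and 1, failed members included, centring, at least 5 FPKM), where only centring gave a positive value. Leaving out single samples and a paired analysis could not be run: No paired analysis was possible because the table holds 1 value per group. Depth is unknown, so its limit cannot be given beyond the implied errors.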
